A study of Homo sapiens with 6 samples.

Results

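The 10 genes described here encode chaperones and proteases of mitochondria and are the genes usually read out as the mitochondrial unfolded protein response. They were taken by symbol, and all 10 were found among the 24154 genes of the table. They are 4 chaperone genes (HSPD1, HSPE1, HSPA9 and TRAP1) and 6 protease genes (LONP1, CLPP, CLPX, YME1L1, AFG3L2 and SPG7). Poly(A) RNA was sequenced from cells treated for 48 h with an siRNA against CPT2 (CPT2 knockdown, n = 3) or with a negative control siRNA (NC, n = 3). Both groups were made in one line, labelled HCT116, a human colorectal carcinoma line, and the siRNA sequences were not used here. CPT2 encodes carnitine palmitoyltransferase 2, which frees long-chain acyl groups from carnitine inside mitochondria so that they can be oxidised. Nothing in the labels ties the replicates to different cultures, and the p-values therefore describe the spread of these 6 libraries, which may be technical. In bulk RNA, fewer cells that express a gene and less RNA per cell cannot be told apart.

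Most mitochondrial proteins are made in the cytosol and enter the matrix unfolded. HSPA9, the mitochondrial member of the Hsp70 family, pulls them in and folds them together with its co-chaperones, and the chaperonin HSPD1 closes over folding proteins with the lid HSPE1. TRAP1 is the mitochondrial member of the Hsp90 family. Damaged or unassembled proteins are degraded in the matrix by LONP1 and by CLPP with its unfoldase CLPX, and at the inner membrane by the AAA proteases YME1L1, AFG3L2 and SPG7. When misfolded proteins build up in the matrix, cells are known to raise transcription of many of these genes, a response linked in mammals to the factors ATF4, ATF5, CHOP (encoded by DDIT3) and HSF1.

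Total counts were 28353790 to 29449380 per library, and the 10 genes held 0.171% to 0.215% of counts in CPT2 knockdown libraries and 0.212% to 0.220% in NC libraries. Single counts of these genes ran from 692 to 19997, where the counting error alone is 3.80% and 0.707%. CPT2, the targeted gene, had 492, 597 and 553 counts in CPT2 knockdown replicates 1 to 3, against 709, 881 and 911 in NC replicates 1 to 3. Its log2 fold change was -0.44 (SE 0.17) and did not pass over all genes (edgeR quasi-likelihood test, Benjamini-Hochberg adjusted p = 0.338). With offsets for transcript GC content and length, described further on, it was 0.031, and with these offsets and without CPT2 knockdown replicate 1 it was -0.25. With sample quality weights in limma-voom CPT2 had -0.50 and passed (adjusted p = 0.0313, 16.5% of all genes called), and with the replicate block and offsets it had -0.0050. Of 10 markers of colorectal epithelium, 4 had a mean over 1 CPM (counts on a common library size). KRT8 and KRT18, epithelial keratins, averaged 1126 and 830.0 CPM. EPCAM, an epithelial adhesion molecule, averaged 3.46 CPM, CDH1, the epithelial cadherin, 2.09 CPM, and the intestinal factors CDX1 and CDX2 had 0 counts in all 6 libraries. By unscaled total counts, 0 counts allow up to 0.106 CPM in the smallest library. COL1A1, a fibroblast collagen, averaged 81.0 CPM, and CDH5, the endothelial cadherin, 71.1 CPM. Means over 1 CPM were found for 2 of 4 fibroblast, 1 of 3 endothelial and 2 of 4 leukocyte markers, with PTPRC, the common leukocyte antigen, at 0.042 CPM. EPCAM, CDH1, CDX1 and CDX2 therefore go against colorectal epithelium, while KRT8 and KRT18 go with an epithelium. Whether these levels are usual for the labelled line was not tested, so the cells are called by their label only. CPT2 knockdown replicate 1 stood apart from the rest on the first principal component (53.2% of the variance), with a score of -76.6, against -16.0 to 44.6 in the other libraries. The share of counts on genes of mitochondrial DNA was 17.0%, 15.6% and 8.99% in CPT2 knockdown replicates 1 to 3, against at most 10.8% in the NC libraries. Their part in the results was not tested.

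HSPD1 and HSPE1 lie together on chromosome 2 (GRCh38) and are known to be transcribed away from a shared promoter, so that their start regions are shown before their values. HSPD1 (ENSG00000144381) lies on the minus strand at 197486581 to 197516737 and HSPE1 (ENSG00000115541) on the plus strand at 197499994 to 197503457 (GENCODE 29). The annotated extent of HSPD1 thus runs past HSPE1, and neither HSPD1 window shown here lies at its far end. The windows are from RefSeq on GRCh38.p14 and run 5′ to 3′ on the strand of the gene, from 250 bases before to 50 bases after an annotated start. The HSPE1 window at chr2:197500129-197500428 and the upstream HSPD1 window at chr2:197500225-197500524 hold the same 204 bases on opposite strands. Capitals mark letters that match GAANNTTC or TTCNNGAA, facing pairs of the heat shock element unit that HSF1 is known to bind.
HSPE1, plus strand: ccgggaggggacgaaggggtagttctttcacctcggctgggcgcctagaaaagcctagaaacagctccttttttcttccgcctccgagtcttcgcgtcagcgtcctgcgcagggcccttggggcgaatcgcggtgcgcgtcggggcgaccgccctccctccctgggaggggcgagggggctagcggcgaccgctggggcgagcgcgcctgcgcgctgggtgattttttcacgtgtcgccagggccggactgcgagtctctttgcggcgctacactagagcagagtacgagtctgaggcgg
HSPD1, upstream start, minus strand: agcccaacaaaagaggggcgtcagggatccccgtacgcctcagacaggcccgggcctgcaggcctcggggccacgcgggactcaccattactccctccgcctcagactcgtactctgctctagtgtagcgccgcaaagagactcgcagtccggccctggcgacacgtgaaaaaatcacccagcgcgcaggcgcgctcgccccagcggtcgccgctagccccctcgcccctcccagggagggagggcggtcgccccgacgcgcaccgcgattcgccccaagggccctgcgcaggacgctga
HSPD1, downstream start at chr2:197499791-197500090, minus strand: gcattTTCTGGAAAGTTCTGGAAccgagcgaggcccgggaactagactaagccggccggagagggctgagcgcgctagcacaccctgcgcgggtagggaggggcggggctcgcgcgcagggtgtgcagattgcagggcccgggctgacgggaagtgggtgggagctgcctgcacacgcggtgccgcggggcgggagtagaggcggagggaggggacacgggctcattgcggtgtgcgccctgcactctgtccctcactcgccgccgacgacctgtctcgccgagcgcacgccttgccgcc
The downstream HSPD1 window held TTCNNGAA at positions 6 and 16 and GAANNTTC at position 11, counted from its 5′ end, which overlap in a single run. The downstream HSPD1 window ends at 197500090 and the HSPE1 window begins at 197500129. This run therefore lies between the downstream HSPD1 start and the HSPE1 start of these windows. The HSPE1 window does not reach far enough to hold it. GAANNTTC was found in 6.77% and TTCNNGAA in 7.74% of all 35116 windows. Among 11 windows of the 8 member genes that had one, only the downstream HSPD1 window held GAANNTTC, and TTCNNGAA was found in that window and in the HSPA9 window. The ATF4 and CHOP composite element TGATGCAA, searched on both strands, was in none of the 11 windows and in 0.866% of all windows. The looser form TGATGNAA was in none of the 11 and in 3.62% of all windows. CCAAT was found in the CLPX window alone among these 11 and in 34.6% of all windows. These matches describe letters in a window and say nothing of binding.

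Members of the set spanned a wide range of levels. By the authors' FPKM, which are per length and can be set side by side between genes, HSPD1 was the highest, with a mean of 214 FPKM in CPT2 knockdown and 245 in NC. HSPA9 averaged 165 FPKM in CPT2 knockdown and 189.7 in NC, TRAP1 113 FPKM in CPT2 knockdown and 99.4 in NC, and HSPE1 61.6 in CPT2 knockdown and 71.5 in NC. LONP1 averaged 54.6 FPKM in CPT2 knockdown and 54.0 in NC. By their means, the chaperones and LONP1 were above the other proteases in both groups. SPG7 averaged 41.8 FPKM in CPT2 knockdown and 35.4 in NC, and YME1L1 23.1 in CPT2 knockdown and 33.0 in NC. CLPP averaged 39.9 FPKM in CPT2 knockdown and 29.7 in NC, AFG3L2 27.0 in CPT2 knockdown and 28.1 in NC, and CLPX, the lowest, 7.67 in CPT2 knockdown and 10.4 in NC. Ordered by their mean in CPT2 knockdown, HSPD1 overlapped with HSPA9, HSPE1 with LONP1, LONP1 with SPG7, SPG7 with CLPP, and AFG3L2 with YME1L1, and the other neighbours did not. Ordered by NC mean, SPG7 and YME1L1, YME1L1 and CLPP, and CLPP and AFG3L2 overlapped, and the other neighbours did not. HSPD1 stood at the 98.7th and CLPX at the 64.0th percentile of mean NC FPKM among the 15302 genes tested. For HSPD1 and HSPE1, reads may be split with related copies, since GENCODE 29 names 17 pseudogenes of HSPD1 and 26 of HSPE1. Of these pseudogenes 0 are among the named genes with counts, so such a split cannot be seen here.

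No member was called between CPT2 knockdown and NC. By edgeR 0 of 10 passed an adjusted p of 0.05, against 0.0131% of the 15302 genes tested, and 0 of 10 passed by DESeq2 (0.111% of all genes) and by limma-voom (0.00654%). An unadjusted p under 0.05 was found in 2 members (CLPP and TRAP1), both higher in CPT2 knockdown, against 14.5% of all genes in either direction and 9.18% in that one. The 10 log2 fold changes, knockdown over NC, ran from -0.42 (YME1L1) to 0.55 (CLPP), 5 above and 5 below 0, where 50.7% of all genes were above 0. Their median was -0.014, against 0.0083 over all genes tested. The groups did not overlap in 3 members, CLPP and TRAP1 (higher) and YME1L1 (lower), where the share over all genes was 24.4% (12.2% in each direction). Leaving out a library cannot make separate groups overlap, so these 3 had to stay apart without CPT2 knockdown replicate 1. No other member joined them there, and the share over all genes was 29.3%. The 95% intervals of single members reached 0.31 to 0.50 to either side of the estimate on the log2 scale. In the authors' deposited table, where a call needs an unadjusted p under 0.01 and a fold of 1.5, all 10 are called normal and 4.15% of genes up or down. CLPP has the smallest unadjusted p of the 10 in the authors' deposited table, 0.000372 by DESeq2, and a fold of 1.47, under the fold threshold.

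**Figure D1:**
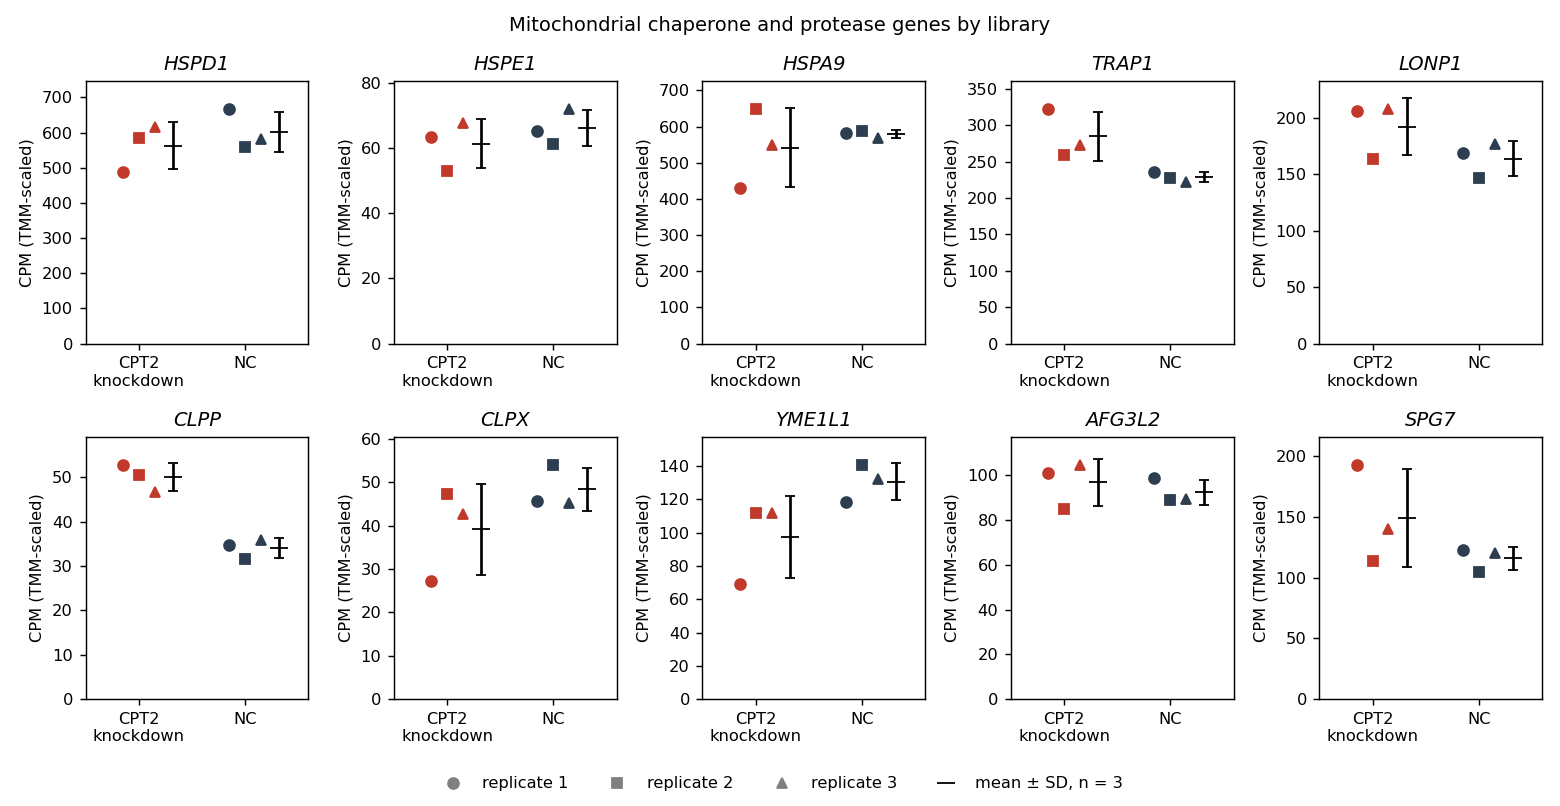
Level of each of the 10 genes in CPM (TMM-scaled, y axis from 0) in the 3 CPT2 knockdown and 3 NC libraries; symbols mark the replicate, bars the mean ± SD. The 3 knockdown libraries lie above all NC libraries for CLPP and TRAP1 and below them for YME1L1, and the other 7 genes overlap.

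The chaperonin genes gave overlapping groups. HSPD1, the barrel-forming chaperonin, had 488, 584 and 616 CPM in CPT2 knockdown replicates 1 to 3, against 667, 558 and 580.4 CPM in NC replicates 1 to 3. CPT2 knockdown replicate 1 was the lowest of the 6 libraries and NC replicate 1 the highest, and the groups overlapped. Its means were 563 ± 66.3 CPM in CPT2 knockdown and 602 ± 57.2 CPM in NC (SD, n = 3 each), and the log2 fold change was -0.096 (SE 0.14, with an edgeR adjusted p = 0.699). HSPE1, the co-chaperonin lid, had 63.4, 53.1 and 67.7 CPM in CPT2 knockdown replicates 1 to 3, against 65.3, 61.3 and 72.0 CPM in NC replicates 1 to 3. The groups overlapped, with CPT2 knockdown replicate 2 the lowest library. The fitted log2 difference was -0.11 (SE 0.16, edgeR adjusted p = 0.69). HSPE1 shares exons on its strand with the readthrough gene HSPE1-MOB4, which had 0 counts in all 6 libraries, and through it with MOB4, which had a log2 fold change of -0.30. Summed with them, the log2 fold change was -0.16 (SE 0.14, with an edgeR adjusted p = 0.517). No source used here gives how strand was handled in counting, and exons of HSPD1 and HSPE1 overlap on opposite strands, so reads of the pair may not be fully separated.

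HSPA9 overlapped between the groups, and TRAP1 was higher in all 3 CPT2 knockdown libraries than in the NC libraries. HSPA9 (ENSG00000113013, chromosome 5, minus strand, 138553756 to 138575724) had 429, 648 and 549 CPM in CPT2 knockdown replicates 1 to 3, against 582, 587 and 568 CPM in NC replicates 1 to 3. The knockdown libraries lay on both sides of the narrow NC range. The log2 fold change was -0.095 (SE 0.16, with an edgeR adjusted p = 0.739), and without CPT2 knockdown replicate 1 it was 0.038. TRAP1 (ENSG00000126602, chromosome 16, minus strand, 3651639 to 3717597) had 322, 258 and 273 CPM in CPT2 knockdown replicates 1 to 3, against 236, 227 and 222 CPM in NC replicates 1 to 3. All 3 knockdown libraries were above every NC library, with replicate 1 the farthest. TRAP1 had a log2 fold change of 0.32 (SE 0.14, 95% interval 0.0098 to 0.62), with an unadjusted p of 0.0444 and an edgeR adjusted p of 0.338. With sample quality weights in limma-voom, TRAP1 had 0.27 and passed (adjusted p = 0.0473), in a fit that called 16.5% of all genes.

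CLPP was higher in all 3 CPT2 knockdown libraries and had the smallest p of the 10 members, while its partner CLPX overlapped between the groups. CLPP (ENSG00000125656, chromosome 19, plus strand, 6361452 to 6368910) encodes the proteolytic chamber of the ClpXP protease. It had 1336, 1416 and 1358 counts in CPT2 knockdown replicates 1 to 3, against 1044, 972 and 1125 in NC replicates 1 to 3. In CPM the means were 49.96 ± 3.15 in CPT2 knockdown and 34.1 ± 2.28 in NC (SD, n = 3 each). All 3 knockdown libraries lay above all NC libraries, and the fitted difference was 46.6%. Its log2 fold change was 0.55 (SE 0.15, 95% interval 0.21 to 0.90), with an unadjusted p of 0.0056 and an adjusted p of 0.338 by edgeR and 0.11 by DESeq2. It lay between 0.498 and 0.6005 when any 1 library was left out. With sample quality weights in limma-voom, CLPP had 0.44 and passed (adjusted p = 0.0296, 16.5% of all genes called). With offsets for transcript GC content and length, the log2 fold change of CLPP was 0.034 (95% interval -0.33 to 0.40).

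CLPX (ENSG00000166855, chromosome 15, minus strand, 65148219 to 65185342), the ATPase that unfolds and feeds proteins to CLPP, had the lowest FPKM of the 10 members. It had 27.4, 47.4 and 42.6 CPM in CPT2 knockdown replicates 1 to 3, against 45.8, 54.0 and 45.3 CPM in NC replicates 1 to 3. CPT2 knockdown replicate 1 was well below the other 5 libraries, and replicate 2 lay inside the NC range. CLPX had a log2 fold change of -0.31 (SE 0.22, edgeR adjusted p = 0.438), and it was -0.11 without CPT2 knockdown replicate 1. LONP1 (ENSG00000196365, chromosome 19, minus strand, 5691834 to 5720572), the Lon protease of the matrix, had 206, 163 and 208 CPM in CPT2 knockdown replicates 1 to 3. Its NC replicates 1 to 3 had 169, 146 and 176 CPM. CPT2 knockdown replicate 2 lay within the NC range and the other 2 above it. LONP1 had a log2 fold change of 0.23 (SE 0.15, edgeR adjusted p = 0.405), and LONP1 exons overlap those of RPL36, a ribosomal protein gene, on the opposite strand. Exons of TRAP1 overlap those of DNASE1 in the same way, those of YME1L1 with MASTL and those of AFG3L2 with TUBB6. As strand handling is not given, reads of these pairs may not be fully separated either.

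Of the inner membrane AAA proteases, YME1L1 was lower in the knockdown libraries, and AFG3L2 and SPG7 overlapped between the groups. YME1L1 (ENSG00000136758, chromosome 10, minus strand, 27110112 to 27155266) faces the intermembrane space. It had 68.9, 112 and 112 CPM in CPT2 knockdown replicates 1 to 3, against 119, 141 and 132 CPM in NC replicates 1 to 3. All 3 knockdown libraries lay below every NC library, replicate 1 by far and the other 2 by little. YME1L1 had a log2 fold change of -0.42 (SE 0.20, 95% interval -0.88 to 0.035, edgeR adjusted p = 0.338), and -0.23 without CPT2 knockdown replicate 1. AFG3L2 (ENSG00000141385, chromosome 18, minus strand, 12328944 to 12377314), which forms the matrix-facing m-AAA protease, had 101, 84.8 and 105 CPM in CPT2 knockdown replicates 1 to 3. In NC replicates 1 to 3 it had 98.9, 89.1 and 89.5 CPM. The groups overlapped on both sides, and the log2 fold change was 0.067 (SE 0.14, with an edgeR adjusted p = 0.794). Scaled on library size alone it was -0.072, where the median of all genes was -0.13. SPG7 (ENSG00000197912, chromosome 16, plus strand, 89490719 to 89557768), the paraplegin subunit of the m-AAA protease, had 193, 114 and 141 CPM in CPT2 knockdown replicates 1 to 3. In NC replicates 1 to 3 it had 123, 105 and 121 CPM. CPT2 knockdown replicate 1 was far above the rest and replicate 2 lay inside the NC range. SPG7 had a log2 fold change of 0.36 (SE 0.20, edgeR adjusted p = 0.355), and 0.12 without CPT2 knockdown replicate 1.

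**Figure D2:**
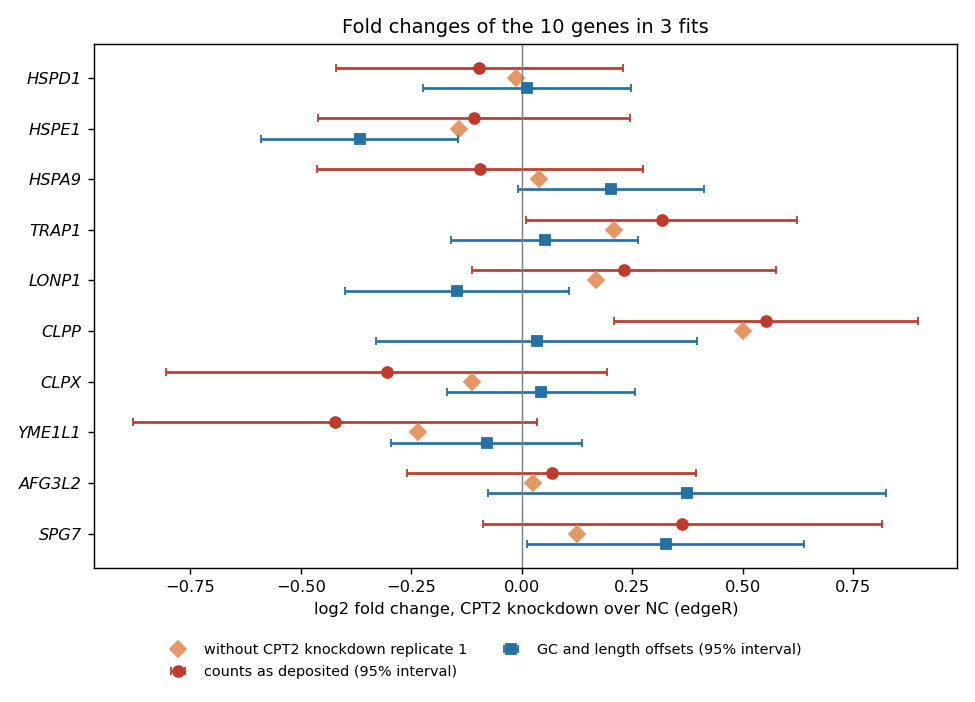
Log2 fold change of each gene, CPT2 knockdown over NC, from edgeR on the counts as deposited (circles, 95% interval), without CPT2 knockdown replicate 1 (diamonds) and with offsets for transcript GC content and length (squares, 95% interval). CLPP moves from 0.55 to 0.034 with the offsets, and HSPE1 from -0.11 to -0.37.

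The fold changes of the 10 genes tended to be higher at higher transcript GC content. The 4 members whose longest transcript had over 55% GC, CLPP (64.3%), LONP1 (63.0%), TRAP1 (56.0%) and SPG7 (55.6%), were the 4 with the highest log2 fold changes. The other 6 had under 51% GC, and YME1L1 (40.6%) and CLPX (41.3%), the lowest in GC content, had the lowest log2 fold changes. Across these 10 genes, which share the same 6 libraries, the fold changes and GC content gave a Pearson's r of 0.87 and a Spearman's rho of 0.83. Over all 13207 genes with a transcript, rho was 0.68. What lies behind this relation in the libraries was not tested. Against the NC mean, genes of the lowest GC decile had medians of -1.02, -0.042 and -0.29 in CPT2 knockdown replicates 1 to 3, against -0.12, 0.18 and -0.054 in the NC libraries. Genes of the highest GC decile had 0.81, 0.087 and 0.44 in CPT2 knockdown replicates 1 to 3, against 0.051, -0.17 and 0.12 in the NC libraries.

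**Figure D3:**
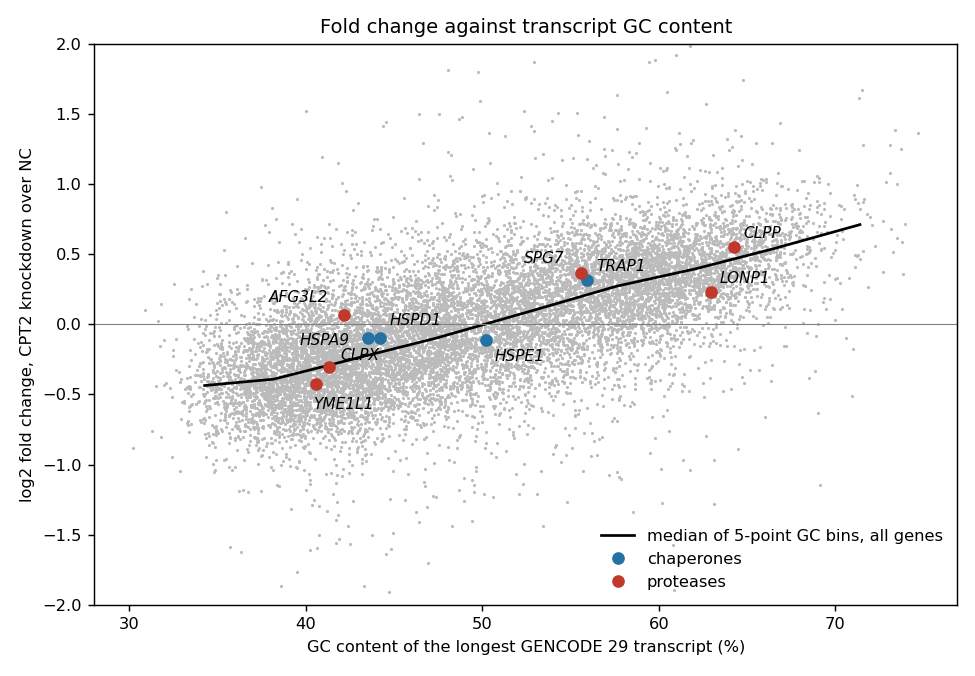
Log2 fold change, CPT2 knockdown over NC (y axis), against GC content of the longest transcript in percent (x axis) for 13207 genes (grey, 26 beyond the axis not drawn), with the 10 named genes in colour and the median of bins 5 GC points wide as a line. The 4 GC-rich members lie at 0.23 to 0.55 and YME1L1 and CLPX at -0.42 and -0.31, along the line of all genes.

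With offsets that remove the loess trend of each library on GC content and length, the order of the members was another. By edgeR 0 of 10 members then passed, against 0.0227% of the 13207 genes, and 7 of 10 log2 fold changes were above 0, with a median of 0.039 against 0.00036 over all genes. HSPE1 had the lowest value, -0.37 (SE 0.099, 95% interval -0.59 to -0.14, edgeR adjusted p = 0.369). With the replicate number as a block it passed at the same size (edgeR adjusted p = 0.0388), in a fit that called 4.46% of all genes, and with the block but no offsets 0 of 10 members passed (4.14% of all genes). AFG3L2 had the highest, 0.37 (SE 0.20), followed by SPG7 with 0.33 (SE 0.14) and HSPA9 with 0.20 (SE 0.093). Without CPT2 knockdown replicate 1, AFG3L2 had 0.13 and SPG7 0.18 with offsets. The values of HSPD1, TRAP1, CLPP, CLPX and YME1L1 lay between -0.080 and 0.052, and that of LONP1 was -0.15. With the trend removed, HSPE1 stood at -0.46, -0.37 and -0.27 against the NC mean in CPT2 knockdown replicates 1 to 3, against -0.095, 0.016 and 0.079 in the NC libraries. Every knockdown library was then below every NC library. AFG3L2 was at 0.78, -0.11 and 0.34 in CPT2 knockdown replicates 1 to 3, so that its value came from replicates 1 and 3. HSPA9 was at 0.23, 0.22 and 0.16 in CPT2 knockdown replicates 1 to 3, against 0.064, -0.093 and 0.029 in the NC libraries, without overlap. CLPP was at -0.24, 0.39 and -0.12 in CPT2 knockdown replicates 1 to 3 after the trend was removed. Before it was removed, CLPP was at 0.63, 0.57 and 0.45 there. A library with a weak trend changes little by construction when the trend is removed, and the GC deciles differed least in replicate 2. Groups without overlap were then found in HSPE1 and HSPA9 alone among the 10 members, and in 19.6% of all genes.

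Ratios of partner genes within a library need no scaling. The log2 ratio of CLPP to CLPX counts was 0.95, 0.091 and 0.13 in CPT2 knockdown replicates 1 to 3, against -0.40, -0.78 and -0.34 in NC replicates 1 to 3. All 3 knockdown libraries lay above the NC libraries, with a difference of 0.89 in the mean log2 ratio. An exact 2-sided permutation test gave p = 0.1, the smallest that 3 against 3 allow. By FPKM, CLPP was 8.06, 4.44 and 4.46 times CLPX in CPT2 knockdown replicates 1 to 3 and 3.16, 2.41 and 3.09 times in the NC libraries. Once the trend on GC content and length was removed, the difference of the CLPP to CLPX log2 ratio was -0.033 (exact permutation p = 1), and the groups overlapped.

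The HSPE1 to HSPD1 log2 ratio of counts was -2.94, -3.46 and -3.19 in CPT2 knockdown replicates 1 to 3, against -3.35, -3.19 and -3.01 in NC replicates 1 to 3. The groups overlapped, with a difference of -0.013 (exact 2-sided permutation p = 0.9). With this trend removed, the difference was -0.38 without overlap (exact permutation p = 0.1). By FPKM, HSPD1 was 3.48 ± 0.562 times HSPE1 in CPT2 knockdown and 3.45 ± 0.401 times in NC (SD, n = 3 each). The SPG7 to AFG3L2 log2 ratio was 0.93, 0.43 and 0.42 in CPT2 knockdown replicates 1 to 3, against 0.31, 0.24 and 0.43 in NC replicates 1 to 3. CPT2 knockdown replicate 1 alone lay above the NC range, and the difference was 0.27 (exact 2-sided permutation p = 0.3). Adjusted over the 3 ratios by the Benjamini-Hochberg method, the p-values were 0.3 for CLPP to CLPX, 0.45 for SPG7 to AFG3L2 and 0.9 for HSPE1 to HSPD1.

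**Figure D4:**
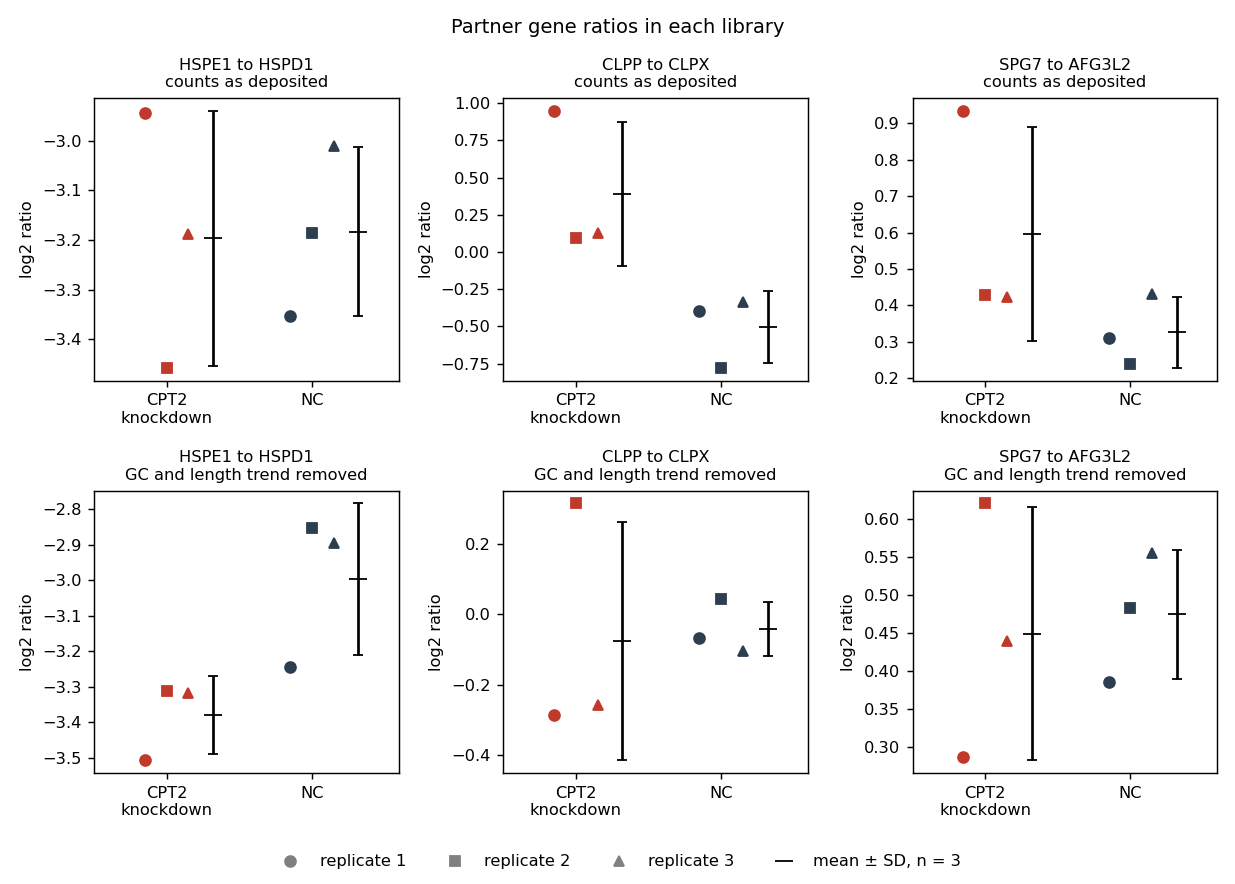
Log2 ratio of partner genes in each library (y axes differ), from counts as deposited (upper row) and after removal of the trend on GC content and length (lower row); bars are the mean ± SD of 3 libraries. The CLPP to CLPX ratio is higher in all 3 knockdown libraries in the upper row and overlaps in the lower row.

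Around these 10 genes, no gene of the wider mitochondrial protein quality control lists was called by edgeR without a replicate block (0.0131% of all genes). With the block 1 import gene was called (4.14% of all genes), and with the block and GC and length offsets 2 co-chaperone genes and 1 factor linked to the response (4.46% of all genes). With sample quality weights in limma-voom, 5 of 14 in the co-chaperone list, 0 of 14 other proteases, 3 of 17 import genes and 3 of 14 factors were called, against 16.5% of all genes. An unadjusted p under 0.05 (edgeR) was found higher in 3 and lower in 0 co-chaperone genes, in 0 of the other proteases, higher in 3 and lower in 1 import gene, and higher in 2 and lower in 1 of the factors, against 14.5% of all genes in either direction and 9.18% higher. Among 14 co-chaperones, prohibitins and related ATPases, 8 log2 fold changes were above and 6 below 0, with a median of 0.12. The median was 0.038 with GC and length offsets, 7 of 14 above 0, and -0.014 when scaled on library size alone (all genes -0.13). GRPEL1, the nucleotide exchange factor of HSPA9, had 30.7 ± 1.89 CPM in CPT2 knockdown and 30.9 ± 2.63 CPM in NC (SD, n = 3 each), a log2 fold change of -0.0078. DNAJA3, a J-domain partner of HSPA9, had 0.031 (SE 0.13). CLPB, a disaggregase of the intermembrane space, had 0.33 (SE 0.17), and 0.70 (SE 0.22) with GC and length offsets. The offsets took its longest transcript, of 10170 bases, and how far the value rests on that length was not tested. PHB2, a prohibitin that forms a scaffold with the m-AAA protease, had 162, 149 and 164 CPM in CPT2 knockdown replicates 1 to 3, against 133, 112 and 129 CPM in NC replicates 1 to 3. The groups did not overlap, and its log2 fold change was 0.34 (SE 0.14, with an edgeR adjusted p = 0.338). In this list of 14, 3 genes were without overlap and higher in knockdown and 2 lower, against 12.2% of all genes in each direction. With offsets PHB2 had -0.013.

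Among 14 other mitochondrial proteases, 6 log2 fold changes were above and 8 below 0 (median -0.045). With offsets 9 of 14 were above 0, with a median of 0.12. OMA1, the stress-activated inner membrane protease, had -0.12 (SE 0.21), HTRA2, a protease of the intermembrane space, 0.31 (SE 0.20), and PMPCB, a subunit of the presequence protease, -0.081 (SE 0.17). Of 17 import genes, 15 were above and 2 below 0, with a median of 0.23, and 12 were above 0 with offsets (median 0.19). TIMM23, the channel of the inner membrane translocase, had 0.22 (SE 0.14). TOMM20, a presequence receptor of the outer membrane, had 138, 204 and 189 CPM in CPT2 knockdown replicates 1 to 3, against 229.6, 237 and 236 CPM in NC replicates 1 to 3. All knockdown libraries were lower, and the log2 fold change was -0.40 (SE 0.17, with an edgeR adjusted p = 0.338). With offsets it was -0.13. Of the 17 import genes, 4 were without overlap and higher in knockdown and 2 lower, against 12.2% of all genes in each direction.

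Of 14 factors linked to the response, 7 log2 fold changes were above and 7 below 0, with a median of 0.051. The median was 0.011 with offsets and -0.089 when scaled on library size alone (all genes -0.13). DDIT3, which encodes CHOP, had 7.63, 5.89 and 5.11 CPM in CPT2 knockdown replicates 1 to 3, against 8.499, 11.2 and 12.7 CPM in NC replicates 1 to 3. All knockdown libraries were below the NC libraries, and the log2 fold change was -0.80 (SE 0.24, with an edgeR adjusted p = 0.338). With GC and length offsets it was -1.04 (SE 0.21, adjusted p = 0.369). ATF5, a factor that can enter mitochondria or the nucleus, had 25.0 ± 2.13 CPM in CPT2 knockdown and 17.6 ± 2.16 CPM in NC (SD, n = 3 each). ATF5 had a log2 fold change of 0.50 (SE 0.18, edgeR adjusted p = 0.338), HSF1, the heat shock factor, 0.45 (SE 0.15, adjusted p = 0.338), and ATF4 0.26 (SE 0.13, adjusted p = 0.344). The groups did not overlap in these 3 genes. Of the 14 factors, 3 were without overlap and higher in knockdown and 2 lower, against 12.2% of all genes in each direction. With offsets the values were 0.12 for ATF5, 0.026 for HSF1 and -0.056 for ATF4. Of the 7 genes tested from a list that watches RNA quality, 6 had negative log2 fold changes (median -0.38). With offsets 3 of 7 were above 0 (median -0.034), and without CPT2 knockdown replicate 1 the median was -0.17. Their medians against the NC mean were -0.96, -0.093 and -0.33 in CPT2 knockdown replicates 1 to 3 against -0.12, 0.22 and -0.092 in the NC libraries, and their part in the differences above was not tested.

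**Figure D5:**
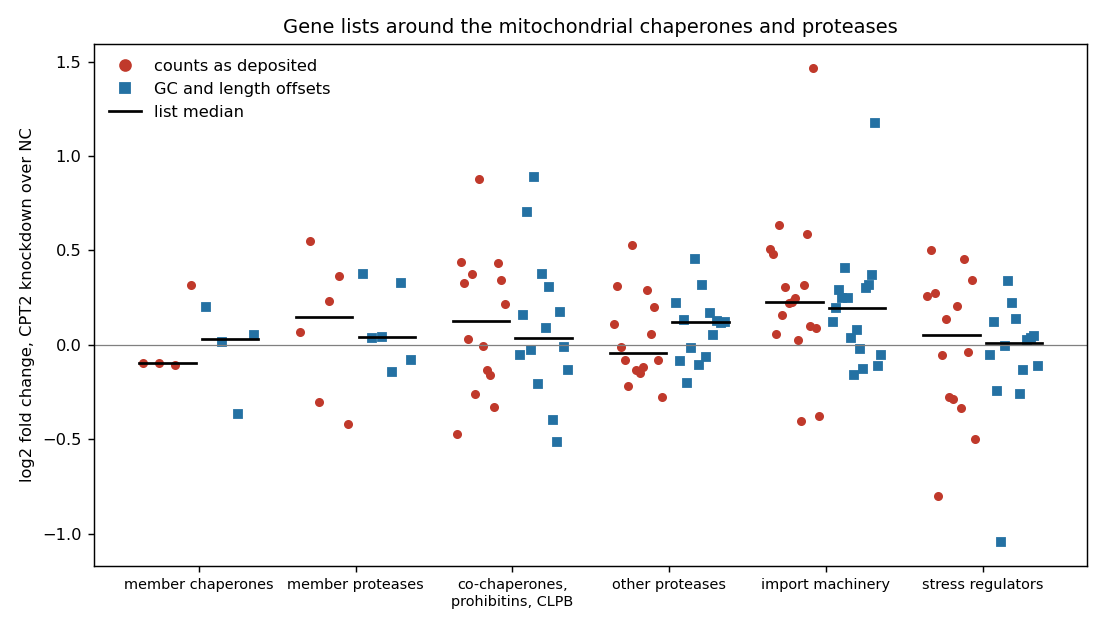
Log2 fold change, CPT2 knockdown over NC (y axis), of every gene in the member lists and in 4 lists around them, from counts as deposited (circles) and with GC and length offsets (squares); lines are list medians. List medians lie between -0.096 and 0.23 as deposited, and edgeR called no gene shown in either of these 2 settings.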

How the data were processed

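Libraries were made from fragmented poly(A) RNA with random primers, per the labels' protocols, which name no strand marking. The authors deposited raw counts per gene and library, beside FPKM values, per the file headers. The same deposited table gives the p-value, log2 fold change and call of the authors' DESeq2 comparison, and its sign is knockdown over NC in the values. The submitters' processing notes list the build GRCh38 and HISAT2, TopHat2, Bowtie2, StringTie, DESeq2 and edgeR, without roles or versions. Beside the 24154 genes, 17 fragments of annotation text without values were left out, all 19974 Ensembl IDs matched GENCODE 29, and 4180 new loci without a symbol stayed in the tests.

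The test was that of edgeR 4.0.16 in R 4.3.3 on the counts (filterByExpr, 15302 genes, TMM, robust quasi-likelihood F-test, Benjamini-Hochberg threshold 0.05). CPM are on TMM-scaled library sizes. Offsets came from a loess (span 0.4) of each library's log2 CPM (prior count 2) on GC content and log2 length of the longest GENCODE 29 transcript, in 13207 genes. Alternatives were DESeq2 1.42.0, limma-voom (limma 3.58.1) with and without sample quality weights, RLE factors, library size alone, 2 other filters, the replicate block, each library left out, overlapping genes summed, and limma-trend on log2(FPKM + 1) and log2(FPKM + 0.1). The tests were checked on simulated data. The 10 members, the gene lists, the motifs and the named genes were chosen with earlier results of these data known. Named genes were the 10 members, CPT2, 13 genes of the lists, and genes sharing exons with a member. They are therefore not an unselected sample. Same-numbered libraries were not treated as paired. Promoter windows are from RefSeq (GRCh38.p14), and 8 of 10 members matched. Intervals cover the spread between libraries, and counting errors cover counting only.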

Additional observations from a re-analysis of the deposited data

How the results depend on the processing

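No member was called under 18 of 20 alternatives. With sample quality weights in limma-voom, which called 2525 genes, 2 members passed (CLPP 0.44 and TRAP1 0.27 on the log2 scale). With the replicate block and GC and length offsets together, which called 589 genes, 1 member passed, HSPE1 (-0.37, edgeR adjusted p = 0.0388). The replicate block alone called 633 genes and no member. Same-numbered libraries correlated at 0.25, 0.36 and 0.0065 in their deviations from the group means. Libraries of different numbers correlated at -0.32 to 0.091, and 5 of 6 libraries correlated best with their own number. For CPT2 knockdown replicate 3 this rested on 0.0065 with NC replicate 3, against 0.0042 with NC replicate 1. Deviations from a group mean depend on each other, so the count of 5 is not one of independent libraries. The labels name no pairing, so the main fit does not pair them, and whether they are paired is not settled here. The count of 2 called genes was 17 by DESeq2, 1 by limma-voom, at an adjusted p of 0.01 and with the stricter filter, 0 with overlapping genes summed and with both FPKM pseudocounts, 4 with offsets without CPT2 knockdown replicate 1, and 1 (without NC replicate 1 or 3) to 5 (without CPT2 knockdown replicate 2) with 1 library left out.

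The median of the 10 members, -0.014, was 0.082 with quality weights and -0.15 on library size alone, where all genes shifted to -0.13. With either FPKM pseudocount it was -0.14 (-0.136 and -0.138). All genes then shifted to -0.072 with the pseudocount of 1 and to -0.12 with that of 0.1. The member median was 0.061 with offsets without CPT2 knockdown replicate 1, and -0.048 to 0.065 with 1 library left out. The log2 fold changes of HSPE1, TRAP1, CLPP, YME1L1 and SPG7 kept their sign in all 20 alternatives. HSPD1 turned to 0.010 with quality weights, 0.012 with offsets and 0.016 with offsets and the replicate block. In those last 2 settings, HSPA9 turned to 0.20 and 0.203, LONP1 to -0.15 and -0.16, and CLPX to 0.044 and 0.043. With offsets without CPT2 knockdown replicate 1 they had 0.19, -0.039 and 0.067. HSPA9 ran from -0.25 to 0.038 with 1 library left out, with the highest value without CPT2 knockdown replicate 1. AFG3L2 turned to -0.072 on library size alone and to -0.062 and -0.065 with the FPKM pseudocounts of 1 and 0.1. The medians of all genes in these settings were -0.13, -0.072 and -0.12. CPT2 turned to 0.031 with offsets. The HSPE1 to HSPD1 ratio ran from -0.14 to 0.12 with 1 library left out, and was 0.072 without NC replicate 3. Once the trend on GC content and length was removed, an alternative chosen after seeing the data, the CLPP to CLPX ratio turned to -0.033 and the SPG7 to AFG3L2 ratio to -0.025. The 3 members without overlap of the groups, CLPP, TRAP1 and YME1L1, had to stay so without CPT2 knockdown replicate 1. No other member joined them there. With the trend removed these 3 overlapped, and 2 other members, HSPE1 and HSPA9, were without overlap. The cause of these shifts was not tested. The 3 libraries a group limit the intervals, and the lowest member count was 692, with a counting error of 3.80%.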

Other observations

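TOMM6, a small subunit of the outer membrane translocase, varied widely within both groups. It had 98.3, 5.32 and 82.4 CPM in CPT2 knockdown replicates 1 to 3, and 50.5, 6.06 and 10.7 CPM in NC replicates 1 to 3. The groups overlapped, with a log2 difference of 1.47 (SE 1.116, edgeR adjusted p = 0.466). It was singled out after its values were seen.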
